A study of Mus musculus with 8 samples.

Results

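The enzymes that make, desaturate and lengthen fatty acids were examined in mouse macrophages loaded with modified lipoprotein. The set comprised 10 genes, taken by gene symbol: *Acly*, *Acss2*, *Acaca* and *Fasn* for synthesis, *Scd1*, *Scd2*, *Fads1* and *Fads2* for desaturation, and *Elovl5* and *Elovl6* for elongation. They were represented by 12 of the 45281 probes of the bead array, and these 12 probes covered 9 of the 10 genes. No probe carried the symbol *Acaca*. A single probe stood under an older name that the reference gene table lists as a synonym of *Acaca*, and it was detected on 0 of the 8 arrays, so no value is given for acetyl-CoA carboxylase. The cells were thioglycollate-elicited peritoneal macrophages of C57/BL6 mice aged 8 weeks. The Ac-LDL group was incubated with 120 μg/ml acetylated LDL, a modified lipoprotein that macrophages take up through scavenger receptors, for 24 h, and the control group was mock treated. Each group held 4 arrays, labelled as biological replicates 1 to 4, and the sources used here do not say whether a replicate was 1 mouse or a pool.

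Fatty acid synthesis starts from cytosolic acetyl-CoA, which ATP citrate lyase (*Acly*) makes from citrate and acetyl-CoA synthetase (*Acss2*) from acetate. Acetyl-CoA carboxylase then makes malonyl-CoA, and fatty acid synthase (*Fasn*) builds palmitate from it. Elongases lengthen the chain, and desaturases insert double bonds. Stearoyl-CoA desaturases make oleate and palmitoleate, common acyl groups of stored cholesteryl esters and triglycerides, while *Fads1* and *Fads2* act on the polyunsaturated series. Sterol regulatory element-binding proteins (SREBPs) drive most of these genes, as well as those of cholesterol synthesis, and liver X receptors, which sense oxysterols, can also drive *Scd1* and *Fasn*.

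Each array measured a probe by the mean brightness of its beads, and a probe was called detected where its deposited detection p was at most 0.05. On each array, 36.8% to 38.5% of the probes were detected, the median signal over all probes was 42.5 to 46.4, and the median bead number was 43 to 44. The arrays lay on 2 slides, with replicates 1 and 2 of both groups on the first and replicates 3 and 4 of both groups on the second. Slide led the spread of the arrays: a single component with 50.2% of the variance put all 4 arrays of slide 1 apart from the 4 of slide 2. All 9 macrophage marker genes with a probe were detected on all 8 arrays, and their summed normalized intensity was 41473 to 53359 in the controls and 42640 to 52934 with Ac-LDL. Of these, *Mertk* was called higher once arrays were paired by replicate number (log2 difference 0.56, limma adjusted p = 0.0364). Of the adipocyte markers, which belong to a tissue well known for these enzymes, *Adipoq*, *Cfd*, *Plin* and *Cidec* were detected on 0 arrays, *Lep* on 2 and *Retn* on 1. *S100a8* was the only neutrophil marker detected, on all 8 arrays, while *S100a9*, *Mpo* and *Ngp* were detected on 0. The summed level of these neutrophil markers, which rests on *S100a8*, was 555 to 613 in the controls and 650 to 718 with Ac-LDL. The groups did not overlap in this sum, and its part in the results below was not tested. Fibroblast and mesothelium genes were present on all arrays for 6 of the 7 on the list, with summed levels of 11925 to 16631 and 13188 to 15031. Of the T cell, eosinophil and mast cell markers, *Cd3e* on 1 array was the only one detected on any array, and the B cell marker *Ms4a1* was detected on 5. In RNA from whole cultures, fewer cells of a type and less RNA per cell cannot be told apart.

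The probes behind the largest differences are given first, since each gene's result rests on the stretch of transcript its probe reads. *Scd1* and *Scd2*, a closely related pair, had 1 probe each. The first 30 bases of the 50-base probes for these genes and for *Elovl6* read, 5′ to 3′, all in lower case because no single part is singled out:
Scd1: ccagtcaaagtgcaagactacctacccact
Scd2: gcaggattgcctctggggacctcgttttgg
Elovl6: gtggcacttcagacttttgttctcctggtt

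The deposited annotation, which names no genome build, placed the *Scd1* probe (ILMN_1237375) on the minus strand of chromosome 19 at 44469114 to 44469163, at base 4457 of the transcript. It placed the *Scd2* probe (ILMN_2919259) on the plus strand of the same chromosome at 44380437 to 44380486, at base 4124. The *Elovl6* probe (ILMN_2614752) was placed on chromosome 3 at 129341097 to 129341146, at base 5635. In RefSeq on GRCm38.p6, a build that these probe positions do not follow, *Scd2* spans 44293676 to 44306864 and *Scd1* spans 44394450 to 44407709 of chromosome 19, and *Fads2* and *Fads1* lie on that chromosome too, at 10062765 to 10101503 and 10182877 to 10196874. All 4 desaturase genes are therefore on 1 chromosome, in pairs that lie close together.

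Incubation with Ac-LDL was accompanied by lower *Scd1*, and, once replicate number was blocked, also by lower *Scd2* and *Elovl6*. The differences of *Acly*, *Acss2*, *Fads1*, *Fads2* and *Elovl5* did not pass. Neither did that of *Fasn*, whose probe lay near background. The limma test over all 17122 tested probes, without a block and with Benjamini-Hochberg adjustment, called 1 of the 10 tested probes of the set, *Scd1*, which was lower. It called 0.035% of all tested probes lower. When arrays were paired by replicate number (the replicate block), 3 of the 10 were called lower, *Scd1*, *Scd2* and *Elovl6*, against 0.28% of all probes. With slide as the block (the slide block) the same 3 were called, against 0.234%. On 5 of the 10 probes every Ac-LDL array was below every control array, a pattern found in 1.68% of all tested probes: these were *Scd1*, *Scd2*, *Fads1*, *Elovl6* and the brighter probe of *Fads2*. The median log2 difference (Ac-LDL minus control) was −0.42 over the 10 probes and 0.00 over all tested probes. Of the 10 probes, 7 were lower with Ac-LDL within every one of the 4 replicate numbers, as were 10.3% of all tested probes.

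**Figure D1:**
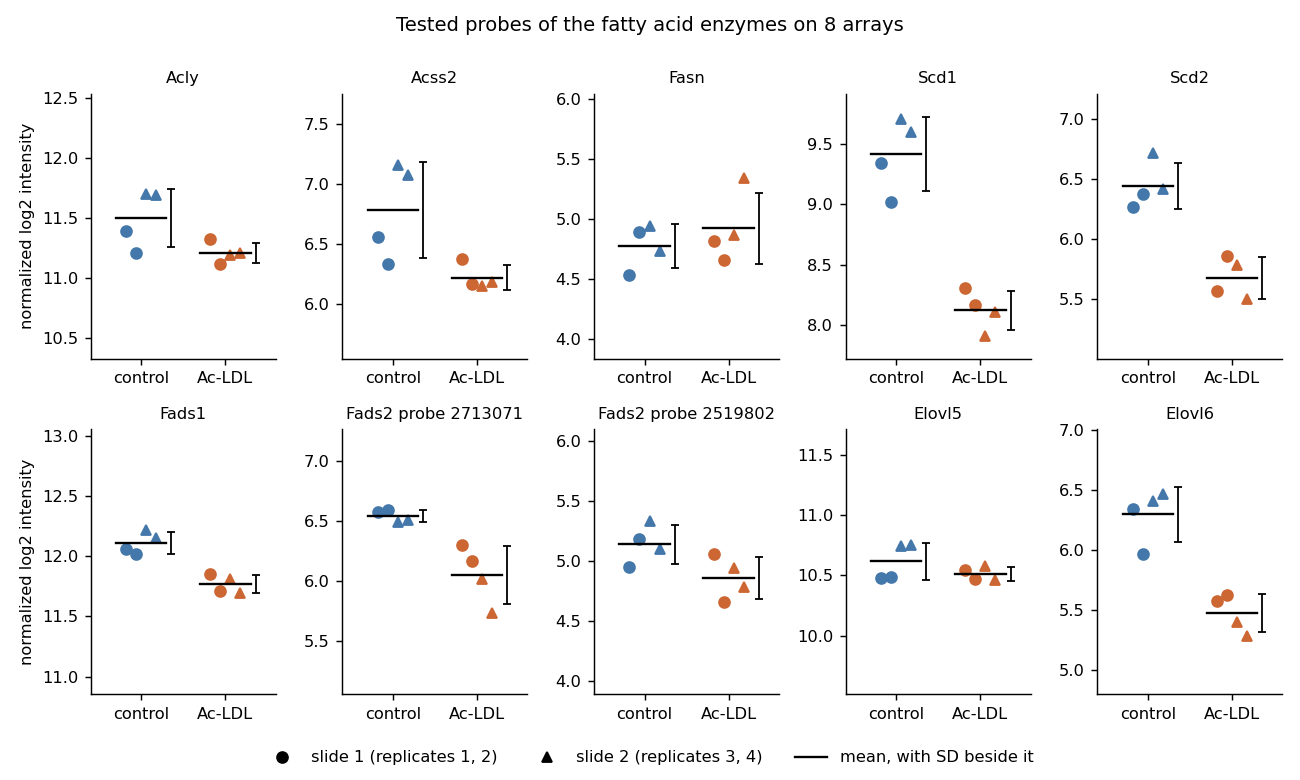
Normalized log2 intensity (vertical axis, the same span in every panel) of the 10 tested probes on each of the 8 arrays, with circles for slide 1, triangles for slide 2, the group mean as a line and the SD as a bar beside it. *Scd1* runs from 9.02 to 9.71 in the controls and from 7.91 to 8.30 with Ac-LDL, whereas the groups overlap for *Acly*, *Acss2*, *Fasn* and *Elovl5*.

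Among the synthesis enzymes no probe passed the test. *Acly*, which supplies acetyl-CoA from citrate, was bright, with normalized log2 intensities of 11.39, 11.21, 11.70 and 11.69 on control arrays 1 to 4 and 11.32, 11.12, 11.19 and 11.21 on the Ac-LDL arrays. The controls of slide 2 stood highest, and control replicate 2 lay within the range of the Ac-LDL arrays. Its log2 difference was −0.29 (SE 0.125, n = 4 per group, limma adjusted p = 0.939, and 0.282 with the replicate block). *Acss2*, the route from acetate, gave 6.56, 6.33, 7.16 and 7.07 in the controls and 6.37, 6.17, 6.15 and 6.18 with Ac-LDL on its detected probe (ILMN_2734181). Here too the pair of slide 2 controls stood above all other arrays, and control replicate 2 lay below Ac-LDL replicate 1. The log2 difference of *Acss2* was −0.56 (SE 0.177, limma adjusted p = 0.776, and 0.181 with the replicate block). A second *Acss2* probe (ILMN_1231116), at base 164 of the same transcript, was detected on 0 of 8 arrays. The *Fasn* probe (ILMN_2874104) was dim, with a deposited signal of 46.7 to 64.0, and was detected on 2 control and 3 Ac-LDL arrays. It gave 4.54, 4.89, 4.94 and 4.74 in the controls and 4.82, 4.66, 4.86 and 5.34 with Ac-LDL. Ac-LDL replicate 4 was the highest array and the groups overlapped, with a log2 difference of 0.15 (SE 0.154, limma adjusted p = 0.986). A difference in the fatty acid synthase transcript was not detectable at this signal.

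The desaturases held the largest difference. *Scd1*, which encodes the main stearoyl-CoA desaturase of many mouse tissues, gave 9.35, 9.02, 9.71 and 9.60 on the control arrays and 8.30, 8.17, 7.91 and 8.11 on the Ac-LDL arrays. The lowest control array, replicate 2, stood clear of the highest Ac-LDL array, replicate 1. The probe was 2.46-fold lower with Ac-LDL, a log2 difference of −1.30 (SE 0.156, n = 4 per group, limma adjusted p = 0.0324), and it ranked 4 by p among all 17122 tested probes. Pairing by replicate number gave a limma adjusted p of 0.0178, and blocking by slide one of 0.00992. The call without a block was lost in most settings that left out arrays. Leaving out 1 array or 1 replicate number at a time moved the log2 difference between −1.45 and −1.14 and the adjusted p between 0.0253 and 0.288, and it passed in 2 of these 12 settings, without control replicate 2 and without control replicate 3. It was also lost when no dim probe was filtered out (limma adjusted p = 0.239).

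*Scd2*, a second stearoyl-CoA desaturase gene, gave 6.27, 6.37, 6.71 and 6.42 in the controls and 5.57, 5.86, 5.79 and 5.50 with Ac-LDL. No Ac-LDL array reached the lowest control. The log2 difference was −0.76 (SE 0.126), a 1.70-fold lower level that did not pass without a block (limma adjusted p = 0.0863). It passed once replicate number (limma adjusted p = 0.0201) or slide (0.0379) was blocked. The deposited signal of this probe was only 65.7 to 138, on 23 to 31 beads, so the constant added before taking logs weighs on its size. With an offset of 50 in place of 16 the log2 difference was −0.51, and without background correction −0.48.

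**Figure D2:**
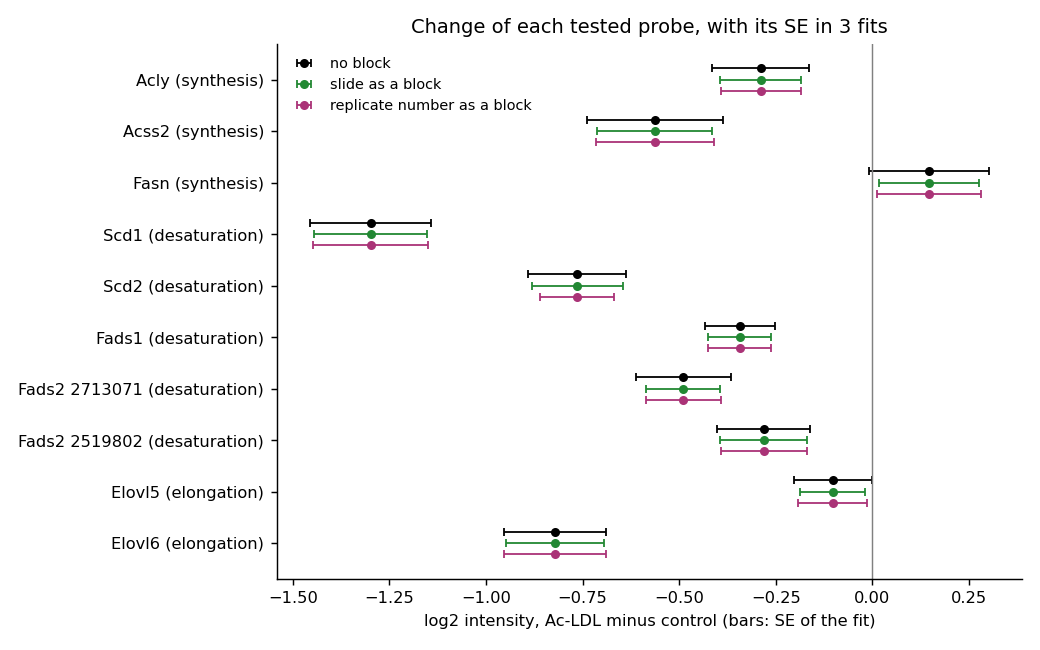
Log2 intensity difference, Ac-LDL minus control, of the 10 tested probes (points) with the SE of the fit (bars) without a block, with slide as the block and with replicate number as the block. The estimates are the same in the 3 fits and only the SE differs, for example from 0.126 without a block to 0.0951 with the replicate block for *Scd2*.

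To ask whether the 2 stearoyl-CoA desaturase genes moved unequally, the *Scd1* value minus the *Scd2* value was taken on each array. This difference was 3.08, 2.64, 3.00 and 3.19 on the control arrays, a mean of 2.98 ± 0.236 (SD, n = 4). It was 2.73, 2.30, 2.12 and 2.60 on the Ac-LDL arrays, a mean of 2.44 ± 0.279. Control replicate 2 lay below Ac-LDL replicate 1, so the groups overlapped. The change of *Scd1* exceeded that of *Scd2* by 0.53 on the log2 scale, with an exact two-sided permutation p of 0.0571 over 70 assignments of the 8 arrays, where 0.0286 is the smallest p possible. Within replicate numbers 1 to 4 the difference moved by −0.34, −0.34, −0.87 and −0.59, so it was lower with Ac-LDL in all 4 pairs, for which the exact sign-flip p was 0.125, the smallest that 4 pairs allow. The unequal change missed the threshold here. With an offset of 50, and separately without background correction, the exact permutation p was 0.0286. Both settings shrink the dim *Scd2* probe more than *Scd1*, so their smaller p is not further support. The offset of 16 in the main setting understates the change of the dim *Scd2* probe more than that of the brighter *Scd1* probe. How much of the 0.53 comes from the offset was not tested. The size of the difference itself compares different probes and is not a ratio of transcripts.

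**Figure D3:**
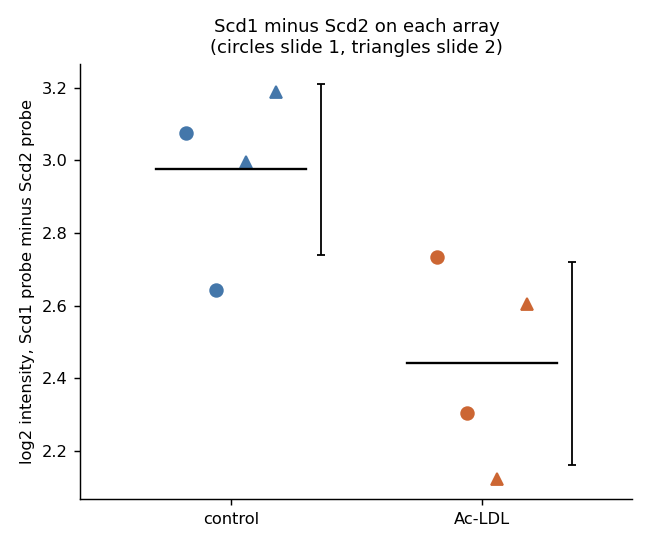
Log2 intensity of the *Scd1* probe minus that of the *Scd2* probe on each array (points, circles for slide 1 and triangles for slide 2), with the group mean as a line and the SD as a bar. The controls sit between 2.64 and 3.19 and the Ac-LDL arrays between 2.12 and 2.73.

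The front-end desaturases, which act on polyunsaturated fatty acids, differed by less. The *Fads1* probe (ILMN_2607786), with a deposited signal of 3197 to 5192, gave 12.06, 12.02, 12.22 and 12.15 in the controls and 11.86, 11.71, 11.82 and 11.69 with Ac-LDL. The groups did not overlap, but the log2 difference of −0.34 (SE 0.0905) did not pass (limma adjusted p = 0.549, or 0.139 under the replicate block). The brighter *Fads2* probe (ILMN_2713071) gave 6.57, 6.59, 6.49 and 6.51 in the controls and 6.30, 6.16, 6.01 and 5.73 with Ac-LDL. The controls lay between 6.49 and 6.59 while the Ac-LDL arrays spread more widely, all below them. The log2 difference was −0.49 (SE 0.123, limma adjusted p = 0.512, 0.0878 and 0.0771 under the replicate and slide blocks). A second *Fads2* probe (ILMN_2519802), which reads near the start of the transcript and was detected on 7 of 8 arrays, gave −0.28 (SE 0.120, limma adjusted p = 0.921), with groups that overlapped between 4.95 to 5.33 and 4.66 to 5.06. Neither *Fads2* probe passed, and both had the same sign. Without background correction their log2 differences were −0.32 and −0.13.

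Of the elongases, *Elovl6* and *Elovl5* gave different pictures. *Elovl6*, which lengthens palmitate to stearate and so supplies the substrate of the stearoyl-CoA desaturases, gave 6.34, 5.96, 6.41 and 6.47 in the controls and 5.58, 5.63, 5.40 and 5.28 with Ac-LDL. Every Ac-LDL array was below every control array. The log2 difference was −0.82 (SE 0.132), a 1.77-fold lower level, which did not pass without a block (limma adjusted p = 0.0814) and passed under both the replicate block (limma adjusted p = 0.0445) and the slide block (0.0381). The deposited signal was 62.4 to 123, and with an offset of 50 the log2 difference was −0.52, and without background correction −0.49. A second *Elovl6* probe (ILMN_1228218), at base 2298 of the same transcript, was detected on 0 arrays. *Elovl5*, which lengthens polyunsaturated fatty acids, ran from 10.48 to 10.76 in the controls and from 10.46 to 10.58 with Ac-LDL, with a log2 difference of −0.10 (SE 0.101, limma adjusted p = 0.984). Whether *Elovl6* changed more than *Elovl5* was not tested.

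By step, the median log2 difference over genes, each by its brightest tested probe, was −0.29 for the 3 measured synthesis enzymes, −0.63 for the 4 desaturases and −0.46 for the 2 elongases. The *Fasn* probe was the 1 of the 10 with a positive difference, while 49.6% of all tested probes were lower with Ac-LDL. The differences within a replicate number were not alike on both slides. *Scd1* had log2 differences of −1.05 and −0.85 in replicates 1 and 2 and of −1.80 and −1.50 in replicates 3 and 4, so the change was −0.95 within slide 1 and −1.65 within slide 2. For *Elovl6* the within-slide changes were −0.55 and −1.10, for *Scd2* −0.61 and −0.92, for *Acss2* −0.17 and −0.95, and for *Acly* −0.08 and −0.50. The change was more negative on slide 2 for 9 of the 10 probes, against 50.3% of all tested probes. In the controls 9 of the 10 probes stood higher on slide 2 than on slide 1, against 47.8% of all probes, and with Ac-LDL 3 of the 10 did, against 48.2%. A limma test of the treatment-by-slide interaction, added after seeing the data, called 0 of the 17122 probes, with 1435 (8.38%) at an unadjusted p under 0.05, among them 4 probes of the set. Those were *Acss2* (unadjusted p = 0.00166), *Scd1* (0.00648), *Elovl6* (0.0205) and *Acly* (0.0342), and their adjusted p ran from 0.442 to 0.584.

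**Figure D4:**
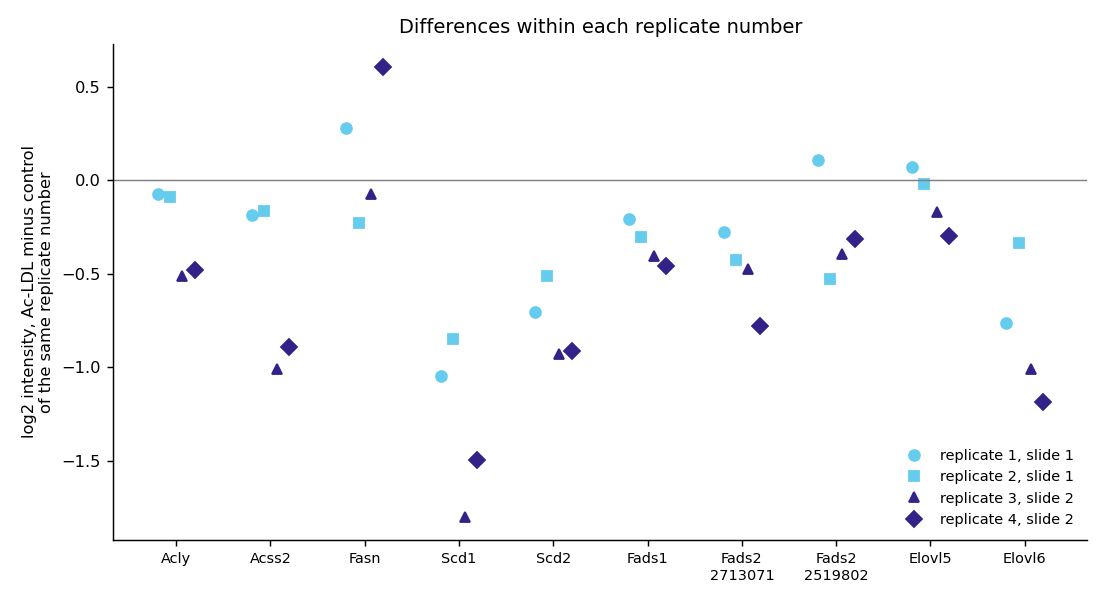
Log2 intensity, Ac-LDL minus control of the same replicate number (vertical axis), for the 10 tested probes, light symbols for the replicates of slide 1 and dark symbols for those of slide 2. *Scd1* lies between −1.80 and −0.85, and *Acss2* at −0.18 and −0.17 on slide 1 and −1.01 and −0.89 on slide 2.

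Further genes of the pathway were taken from 5 lists: substrate supply and control of synthesis, mitochondrial fatty acid synthesis, other desaturases with their electron donors, other elongases with the elongation cycle enzymes, and transcription factors with SREBP control. They held 48 genes, of which 44 had a probe and 33 were tested, 25 with a lower and 8 with a higher value with Ac-LDL and a median log2 difference of −0.04. Of all tested probes, 49.6% were lower. By the brightest probe of each gene, limma without a block called 0 of the 33, with 8 at an unadjusted p under 0.05 against 5.20% of all tested probes. With either block it called 2, both lower, against 0.28% of all tested probes called lower under replicate and 0.234% under slide blocking. The 2 were *Insig1* and *Srebf2*, both on the list of transcription factors with SREBP control. No gene of the other 4 lists passed in any of the 3 fits. *Insig1*, which holds SREBPs in the endoplasmic reticulum when sterols are plentiful and is itself an SREBP target, had 3 tested probes with log2 differences of −1.45, −1.22 and −1.59. The last of them (ILMN_2606693) passed without a block (limma adjusted p = 0.0269), but in only 4 of the 12 settings that left out arrays (limma adjusted p up to 0.188) and not without the filter on dim probes (0.239), and without background correction its log2 difference was −1.04. The brightest did not pass without a block and passed with either one (limma adjusted p = 0.0577, against 0.0189 under replicate and 0.0104 under slide blocking). *Srebf2*, which encodes the SREBP best known for cholesterol synthesis, had log2 differences of −0.88 and −0.85 on its 2 probes, and the first gave a limma adjusted p of 0.106, against 0.0204 under replicate and 0.0441 under slide blocking.

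*Srebf1*, the SREBP gene best known for fatty acid synthesis, was dim and had a log2 difference of 0.05 (SE 0.114, limma adjusted p = 0.993). *Nr1h3*, which encodes a liver X receptor, had a log2 difference of 0.36 with groups that did not overlap, but did not pass (limma adjusted p = 0.703). Outside the list of transcription factors and SREBP control, the most negative value was −0.45 for *Mid1ip1*, a protein that helps acetyl-CoA carboxylase polymerize. Next came −0.33 for *Elovl1*, an elongase of very long chains, −0.32 for *Cyb5b*, a mitochondrial cytochrome b5, and −0.31 for *Slc25a1*, the mitochondrial citrate carrier. None of them passed. *Nr1h3*, *Srebf1*, *Mid1ip1*, *Elovl1*, *Cyb5b* and *Slc25a1* were named after their values were seen. The lists' medians were −0.27 for substrate supply, −0.01 for mitochondrial synthesis, −0.11 for the other desaturases, −0.02 for the other elongases and −0.02 for the transcription factors.

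Beside these, the sterol synthesis enzymes gave larger differences. All 17 tested genes of that list had lower values with Ac-LDL, against 49.6% of all tested probes, with a median log2 difference of −1.15. Of the 17, 3 were called without a block, 8 under slide and 9 under replicate blocking. The shares of all tested probes called lower were 0.035%, 0.234% and 0.28%. The *Scd1* value of −1.30 lay within the range of these sterol synthesis genes, −1.69 to −0.24. So did the values of all other tested fatty acid enzymes except *Fasn* and *Elovl5*. Among the genes whose 4 within-number differences were closest to those of *Scd1*, by root mean square distance over the 4 replicate numbers, were *Acat2* (0.111 log2 units), which makes acetoacetyl-CoA, *Lss* (0.162), the lanosterol synthase, *Hsd17b7* (0.175), a ketosteroid reductase, and *Insig1* (0.185). For *Scd2* they were *Pcyt2* (0.123), an enzyme of phosphatidylethanolamine synthesis, *Usp18* (0.134), a protease for the interferon-induced modifier ISG15, *AI595366* (0.135), *Ch25h* (0.135), the cholesterol 25-hydroxylase, and *4833426J09Rik* (0.154). These distances rest on 4 differences and describe likeness only.

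**Figure D5:**
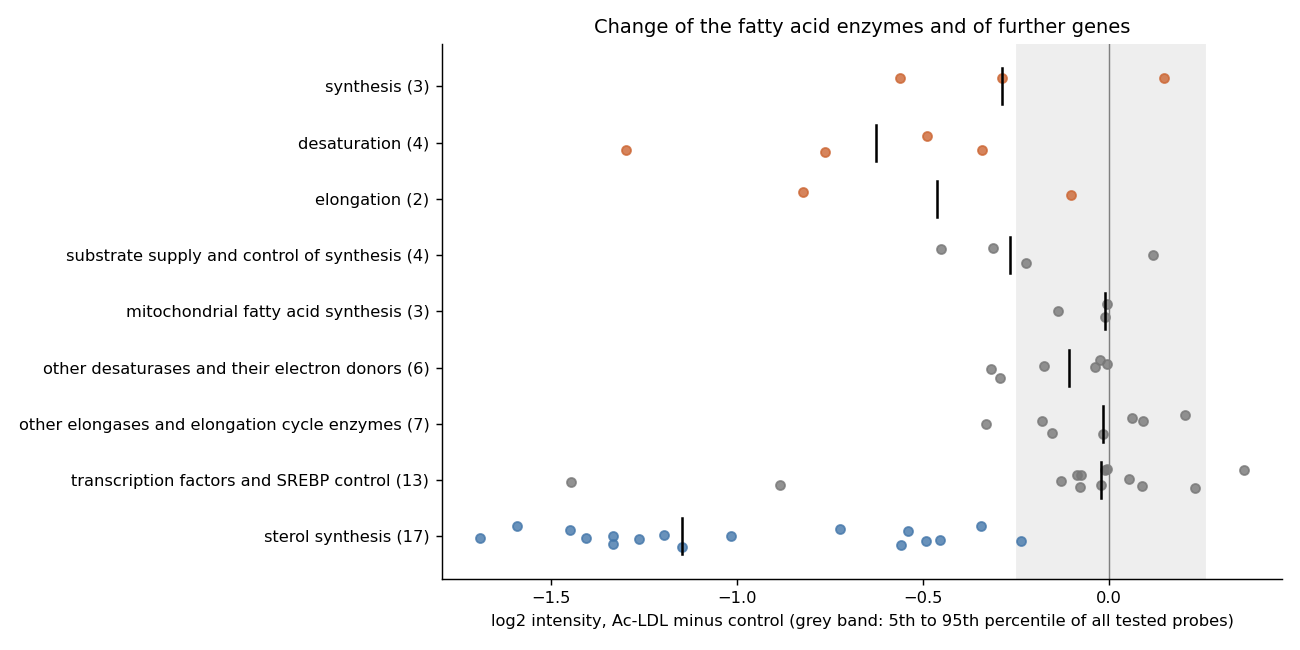
Log2 intensity difference, Ac-LDL minus control, of each tested gene by its brightest probe (points), for the fatty acid enzymes by step (orange), the further lists (grey) and sterol synthesis (blue), with the number of genes in brackets, the median as a black line and the range from the 5th to the 95th percentile of all tested probes, −0.25 to 0.26, as a grey band. *Fasn* at 0.15 and *Elovl5* at −0.10 lie within the band. All other fatty acid enzymes, from *Scd1* at −1.30 to *Acly* at −0.29, lie within the range of the sterol synthesis genes, −1.69 to −0.24.

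RefSeq promoter windows on GRCm38.p6, each of 300 bases around a transcript start, were given for 7 of the 10 genes. In 5 of them the window held the start of the gene as RefSeq lists it, while those of *Acaca* and *Fasn* lay inside the gene. No window was given for *Scd1*, *Scd2* and *Fads1*. Both strands were searched for 4 motifs. The sterol regulatory element letters TCACNCCAC were found in 0 of the 7 windows and in 1.24% of all 32851 windows. The inverted CCAAT box ATTGG was found in 4 of the 7, *Acly*, *Acss2*, *Fasn* and *Elovl5*, and in 37.4% of all windows, and without *Acaca* and *Fasn* it was in 3 of 5. The E-box CACGTG was in the window of *Elovl5* alone, against 7.15% of all, and the GC box GGGCGG in those of *Acly*, *Acss2* and *Fads2*, against 35.7%. No motif's letters contain those of another. The *Elovl6* window, the only one here of a gene called in either blocked fit, held none of the 4, which says only that these letters are not in this window.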

How the data were processed

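The arrays were Illumina Mouse WG-6 v2.0 bead chips, read with BeadStudio per the submitters' processing notes. The authors deposited, for each probe and array, the mean bead intensity on the linear scale with no normalization between arrays, its standard error over beads, the bead number, and a detection p-value, which the authors' software gives as a rank against the negative controls of the array. The authors' own normalization in GeneSpring was not used here. The probe annotation and its symbols are those of the deposited file, which names no genome build.

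Intensities were background corrected with normexp by control probes inferred from the detection p-values, given an offset of 16, quantile normalized and put on the log2 scale in limma 3.58.1 (R 4.3.3). A probe was kept where its detection p was at most 0.05 on 4 or more of the 8 arrays, and the 17122 kept of 45281 were tested with lmFit and eBayes, without a block as in the study's unpaired test, with Benjamini-Hochberg adjustment over all tested probes and calls at an adjusted p under 0.05. A log2 difference understates the change of a dim probe because of the offset, and the number of arrays limits the precision. Same-numbered arrays of the groups deviated together. The correlations of their deviations from the group means were 0.579, 0.479, 0.468 and 0.629 for numbers 1 to 4. All 4 exceed 0.1, so the numbers were taken as pairs. Mismatched numbers that shared a slide gave lower values that also exceed 0.1 (0.429 and 0.343 for slide 1, 0.188 and 0.447 for slide 2). Across slides the correlations were negative, from −0.546 to −0.318. The cut of 0.1 therefore cannot tell pairing by number from a shared slide. Fits with the replicate number or the slide as a block are given where they change a call. A gene with several probes was represented by its brightest tested probe, and every probe of the 10 enzymes is reported. Of the further genes those with a called probe were named, and for *Scd1* and *Scd2* genes among the 5 nearest to each. A nearest gene and a marker gene are not reported here. The members, the lists and the tests were chosen with earlier results of these data known. In simulated arrays with planted changes, the mean error of the estimated changes was under 0.1 log2 units. That simulation had replicate effects but no separate slide effect, and the share of planted changes called is not given here. Alternatives covered the background correction, scaling, offset, filter, prior, blocks, the methods' t-test and leaving out arrays.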

Additional observations from a re-analysis of the deposited data

Results flagged for a closer look

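In 1 of the 20 groups of 4 arrays examined, an array stood apart from the other 3 by a gap test at the 5% level, and chance gives about 1 such group among 20. It was *Acss2* with Ac-LDL, where replicate 1 read 6.37 and the others 6.15 to 6.18. The reason for the gap was not tested.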

How the results depend on the processing

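The number of enzyme probes called, 1 without a block, was 3 with the slide as a block, with the replicate block and with each array scaled to the median of its detected probes, and 0 without a filter on dim probes and with the methods' t-test. Leaving out arrays gave 0 to 2. Over all probes, the 7 calls became 55 with the slide block, 76 with the replicate block, 30 with median scaling, 14 with 75th percentile scaling and 16 with a trended, robust prior, and 0 without the filter (2290 at an unadjusted p under 0.05) and with the t-test (1039). Leaving out arrays gave 0 to 15. At an unadjusted p under 0.05 the t-test passed 6 of the enzyme probes. The larger change of *Scd1* than of *Scd2* was 0.53 log2 units in the main setting and had the same direction in all settings run. None of these settings used an offset under 16, so the change of the dim *Scd2* probe was understated more in all of them. The shared direction is therefore not further support. The signed value was −0.71 without background correction and −0.70 with an offset of 50, each with an exact permutation p of 0.0286, and −0.64 to −0.42 when arrays were left out, with exact p of 0.0571 to 0.2. The missing background correction and the larger offset shrink the dim *Scd2* probe more than *Scd1*, so their smaller p is not further support. With the replicate block the exact sign-flip p of the *Scd1* and *Scd2* comparison was 0.125, the smallest 4 pairs allow. *Elovl6* passed when control replicate 2 was left out (limma adjusted p = 0.0465). *Scd1* and *Insig1* lost their calls with the methods' t-test (adjusted p = 0.437). The brightest *Insig1* probe, not called in the main setting, passed with 75th percentile scaling (limma adjusted p = 0.0261), median scaling (0.0139) and the trended prior (0.0374), and without control replicate 2 (0.0465) or 3 (0.0432). Leaving out arrays took *Fasn* from −0.0077, without replicate 4, to 0.28, and every other member probe kept its direction in the settings run. Swapping in other probes of *Scd1* and *Scd2* was not run, as each has 1. Brightness sets the limits here: *Fasn*, *Scd2*, *Elovl6*, both *Fads2* probes and the tested *Acss2* probe lie near background, where the background correction and the offset decide much of the size of a difference.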
